A study of Mus musculus with 18 samples.

Results

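The transplant effect, kidney transplantation minus sham surgery, was compared between day 7 and day 1 after surgery for every gene. The comparison is a difference of differences, (Ktx-7d minus sham-7d) minus (Ktx-1d minus sham-1d), on log2(FPKM + 1), where FPKM counts fragments per gene length and library size. It used 12 of the 18 mouse kidney libraries: 3 of Ktx-7d, 3 of sham-7d, 3 of Ktx-1d and 3 of sham-1d. The 3 Ktx-14d and 3 sham-14d libraries entered neither effect and are given beside them. Ktx libraries came from transplanted kidneys, which had been held in cold storage between removal and implantation. Sham libraries came from mice with sham surgery, sampled at the same day. All groups carry the label wild type, and RNA was taken from renal cortex. Strain, sex, age, donor and recipient, and hours of storage are not given in the labels used here. Nor do they say whether the libraries of a group were from different animals, so a p-value here reflects the spread among libraries alone, and that spread may be technical. Some label fields describe rat tubule cells, streptozotocin diabetes and ischemic injury. These go against the titles, which set the groups here.

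As background, a kidney that is cooled, stored and reperfused suffers injury of its tubule cells, above all in the proximal tubule, which reabsorbs most of the filtrate and depends on oxidative metabolism. Injured tubule cells switch on stress and cytoskeletal genes and lose transporters, and then either regain their differentiated state or stay altered while leukocytes and matrix accumulate. The difference of differences separates genes by course: a rise that faded, a rise that grew, a fall that recovered and a fall that deepened. In bulk tissue, fewer cells of a type and less RNA per cell cannot be told apart.

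FPKM sums per library ran from 386928 to 524435, with 18678 to 23101 genes above 0, and sequencing depth is unknown. Tested were the 15278 genes that reached FPKM 1 in 3 or more of the 18 libraries, and a gene low in sham can pass this filter through transplant libraries alone. Markers of cortex were present, with summed FPKM of 41 proximal tubule transporter genes of 3070 to 3330 in Ktx-7d, 6290 to 6570 in sham-7d, 1990 to 2950 in Ktx-1d and 6810 to 7080 in sham-1d, whereas 10 muscle genes summed to at most 3.13 in any of these libraries. The mitochondrial chromosome took 14.4% to 17.8% of the FPKM sum in Ktx-7d, 29.6% to 30.8% in sham-7d, 16.9% to 24.7% in Ktx-1d and 28.8% to 30.3% in sham-1d. Rescaled without these genes, 569 effects were called more positive and 177 more negative. The median difference of differences over all genes was 0.09. Under median-of-ratios scaling, which balances the bulk of genes, it was 0.003. Medians of the single-day effects over all genes were 0.31 at day 1 and 0.41 at day 7, against 0.03 and 0.03 under that scaling. Counts called higher or lower than sham on a day depend on this shift.

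A difference of differences was called for 667 of 15278 genes (4.37%) at a limma adjusted p (Benjamini-Hochberg over all genes tested) below 0.05. It was more positive at day 7 for 467 genes (3.06%) and more negative for 200 (1.31%), against 315 (2.06%) and 262 (1.71%) under median-of-ratios scaling. In sham, 0 genes were called between sham-7d and sham-1d by limma, with 375 genes (2.45%) at an unadjusted p below 0.05. Among the classed genes the largest absolute change in sham was 1.15. The members just inside and just outside the threshold were Tubb2a, with a difference of -0.78 and an adjusted p of 0.04989, and Kif20a, with a difference of 1.28 and an adjusted p of 0.05022.

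Rises that faded numbered 160 genes (1.05%), rises that grew 220 (1.44%), falls that recovered 196 (1.28%) and falls that deepened 32 (0.209%). Under median-of-ratios scaling, 140, 123, 124 and 32 of these genes, in the same order, kept their class. Ktx-7d set against Ktx-1d alone, with no sham, gave 1528 genes higher (10%) and 783 lower (5.13%). All 3 Ktx-7d libraries lay above all 3 Ktx-1d libraries for 219 of the 220 grown rises and 194 of the 196 recovered falls, against 3095 of all tested genes (20.3%). They lay below them for 158 of the 160 faded rises and all 32 deepened falls, against 1608 of all (10.5%). This separation uses the values that chose the classes, so it is given as description only. A further 58 genes (0.38%) were called on opposite sides of sham at the 2 days, and Nudt4 was called in neither day's effect. Of the 4517 genes called higher at day 1 (29.6%), 200 had a called difference (4.43%), 168 of them toward sham and 32 away from it. Of the 1460 genes called lower at day 1 (9.56%), 265 had a called difference (18.2%), 246 of them toward sham and 19 away. Most day 1 effects thus carried no called change by day 7, which does not show that they were the same. Ktx-1d replicate 1 had smaller effects than its group for several genes named below, and without it the faded rises numbered 250 and the recovered falls 298. The recovered falls numbered 128 without Ktx-1d replicate 3 and 125 without Ktx-7d replicate 3, the grown rises 145 without sham-7d replicate 2, and the genes on opposite sides 38 without sham-7d replicate 3.

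**Figure D1:**
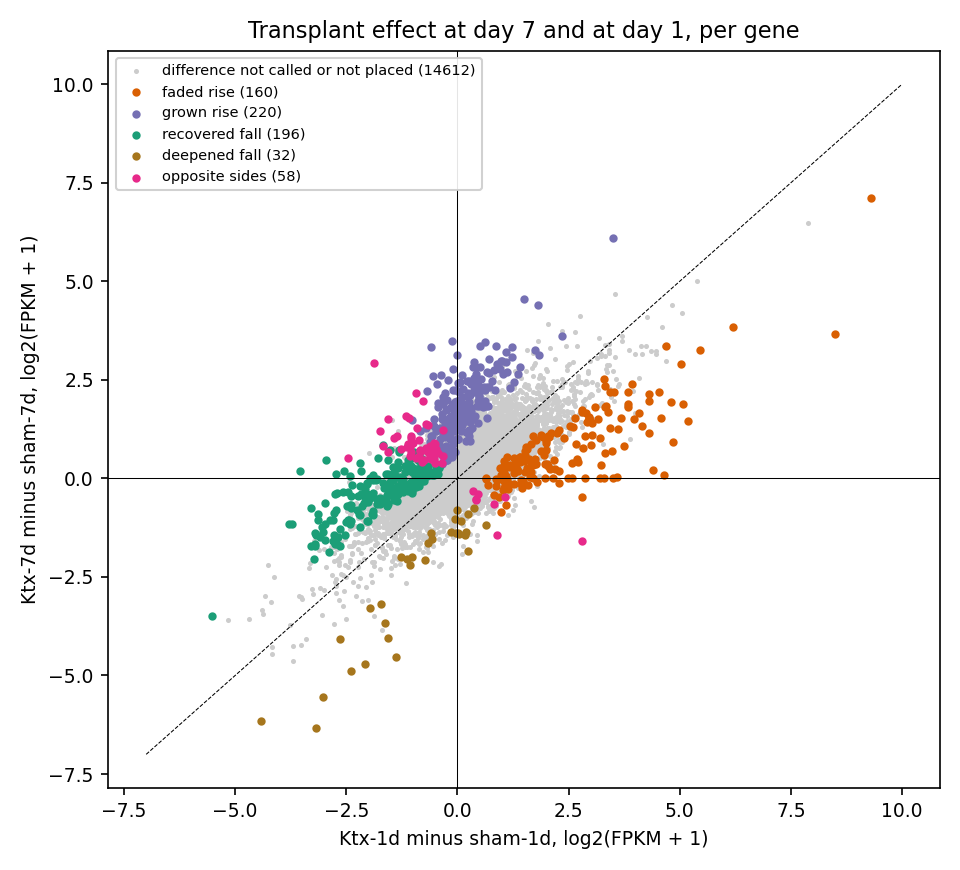
Transplant effect of each of the 15278 genes at day 7 (vertical axis) and at day 1 (horizontal axis), both in log2(FPKM + 1), with the called difference of differences coloured by class and the dashed line marking equal effects. The 160 faded rises lie right of the vertical axis line and below the dashed line, and the 196 recovered falls left of it and above the dashed line. The 220 grown rises have a median day 1 effect of 0.07, and 32 of them were already called higher at day 1.

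Rises that faded were led by keratin, lipid droplet, filamin and chromatin genes. Krt20, an intermediate filament keratin induced in injured tubule (ENSMUSG00000035775, chromosome 11, 99428403 to 99438150 in GRCm38), measured 10.6, 13.2 and 13.1 FPKM in Ktx-7d against 0.121, 0 and 0 FPKM in sham-7d. At day 1 it measured 193, 479 and 794 FPKM in Ktx-1d against 0.089, 0.29 and 0.116 FPKM in sham-1d. All Ktx-1d libraries lay above all Ktx-7d libraries, which lay above sham, and the lowest Ktx-1d library was replicate 1. The effect was 3.67 at day 7 and 8.50 at day 1, a difference of -4.83 ± 0.51 (SE, limma adjusted p = 2.72e-05).

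Plin2 encodes perilipin 2, which coats lipid droplets (ENSMUSG00000028494, chromosome 4, 86648386 to 86670060 in GRCm38). It measured 47.6, 38.2 and 42.2 FPKM in Ktx-7d against 25.3, 20.8 and 20.6 FPKM in sham-7d, and 449, 726 and 982 FPKM in Ktx-1d against 21.8, 25.1 and 21.9 FPKM in sham-1d. Ktx-7d stood close above sham, and Ktx-1d stood far above every other library. The effect was 0.91 at day 7 and 4.84 at day 1, a difference of -3.93 ± 0.34 (SE, limma adjusted p = 3.93e-06). Pdk4 and Angptl4 were faded rises as well. Pdk4, the kinase that shuts pyruvate out of oxidation, measured 4.61, 4.76 and 3.68 FPKM in Ktx-7d against 5.96, 6.6 and 6.51 FPKM in sham-7d, and 24.3, 38.9 and 119 FPKM in Ktx-1d against 7.49, 4.73 and 6.45 FPKM in sham-1d, with the 3 Ktx-1d libraries unequal among themselves. Angptl4, a secreted inhibitor of lipoprotein lipase, had an effect of -0.10 at day 7 and 2.27 at day 1, a difference of -2.38 ± 0.58 (SE, limma adjusted p = 0.0222). Of the 30 tested genes of fatty acid oxidation, 0 were called more positive (3.06% of all tested genes) and 4 more negative (1.31% of all), with a median difference of -0.29 against 0.09 over all genes. Among these were Pdk4, Acot12, a deepened fall, and Cpt2, which was below sham at day 7 and above it at day 1. At day 7, 1 gene of the list was called higher than sham and 13 lower, and at day 1, 9 higher and 11 lower. Over all tested genes, 35.5% were called higher and 6.01% lower at day 7, and 29.6% and 9.56% at day 1.

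Other leading faded rises were Flnc, the actin cross-linker filamin C, Hmga1, an architectural chromatin protein, and Fosl1, the FRA1 subunit of the transcription factor AP-1. Flnc measured 2.74, 3.23 and 3.06 FPKM in Ktx-7d against 0.0623, 0.0624 and 0.131 FPKM in sham-7d, and 22.4, 56 and 28.8 FPKM in Ktx-1d against 0.0114, 0.0194 and 0.0193 FPKM in sham-1d, so sham was near 0 at both days, and its difference was -3.19 ± 0.37 (SE, limma adjusted p = 6.41e-05). Hmga1 measured 17.6, 13.4 and 12.8 FPKM in Ktx-7d and 100, 353 and 257 FPKM in Ktx-1d, and its difference was -3.74 ± 0.46 (SE, limma adjusted p = 8.75e-05). Hmga1 shares sequence with the copy Hmga1b, so its level is uncertain. Fosl1 had an effect of 1.15 at day 7 and 4.31 at day 1, a difference of -3.16 ± 0.46 (SE, limma adjusted p = 0.000438). Calcb, a calcitonin gene-related peptide gene, measured 0, 0 and 0.189 FPKM in Ktx-7d against 0, 0 and 0 FPKM in sham-7d, and 3.24, 50.1 and 70.8 FPKM in Ktx-1d against 0, 0 and 0 FPKM in sham-1d. Its rise rested on Ktx-1d replicates 2 and 3.

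Tubular injury genes were high on both days, and some receded. Of 30 tested, 27 were called higher at day 7, against 35.5% of all tested genes, and 29 at day 1, against 29.6% of all. The difference was called more negative for 7 (1.31% of all tested genes) and more positive for 2 (3.06% of all), with a median of -0.87. Havcr1, which encodes kidney injury molecule 1, a phagocytic receptor of injured proximal tubule, measured 187, 335 and 323 FPKM in Ktx-7d against 1.06, 0.987 and 0.877 FPKM in sham-7d, and 808, 1150 and 1220 FPKM in Ktx-1d against 0.654, 0.765 and 0.569 FPKM in sham-1d. No transplant library overlapped sham at either day, and the difference was -2.18 ± 0.29 (SE, limma adjusted p = 0.000197). The other injury genes called more negative were Krt20, Fga, Anxa2, Krt8, S100a10 and Tnfrsf12a, and the 2 called more positive were Ctss, the protease cathepsin S, and Cp, which encodes ceruloplasmin. Lcn2, which encodes the siderophore-binding protein NGAL, measured 125, 95 and 106 FPKM in Ktx-7d against 0.629, 0.0563 and 0.0824 FPKM in sham-7d, and 242, 227 and 366 FPKM in Ktx-1d against 0.203, 0.0763 and 0.198 FPKM in sham-1d, and its difference of -1.41 did not pass the test (limma adjusted p = 0.0758). Spp1, which encodes osteopontin, had a difference of -0.42 (limma adjusted p = 0.377), and its Ktx-7d and Ktx-1d libraries overlapped.

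Genes of antioxidant defence, metal binding and haem breakdown were among the faded rises. The shares to set beside the counts here are 1.31% of all tested genes called more negative and 3.06% more positive. Of 19 tested targets of NRF2, the regulator of the antioxidant response, 0 were called more positive and 5 more negative (Gsta1, Hmox1, Akr1b8, Srxn1 and Taldo1), with a median of -0.45. Srxn1, which encodes sulfiredoxin, the enzyme that reactivates oxidised peroxiredoxins, measured 44.6, 37.4 and 37 FPKM in Ktx-7d against 17.4, 14.8 and 15.3 FPKM in sham-7d, and 151, 184 and 227 FPKM in Ktx-1d against 17.5, 16.6 and 14.6 FPKM in sham-1d. Both transplant groups lay above sham, and the difference was -2.16 ± 0.22 (SE, limma adjusted p = 2.23e-05). Hmox1, the haem oxygenase that releases iron from haem, measured 24, 15.7 and 16.4 FPKM in Ktx-7d against 15.9, 15.2 and 10 FPKM in sham-7d, and 135, 110 and 95 FPKM in Ktx-1d against 16.3, 14.4 and 18.6 FPKM in sham-1d. By day 7 its transplant libraries reached into the sham range or just above it, and the difference was -2.28 ± 0.33 (SE, limma adjusted p = 0.000463). Gsta1, a glutathione transferase of a family with similar copies, had a difference of -2.34 ± 0.28 (SE, limma adjusted p = 8.34e-05). Of 12 tested metallothionein and iron genes, 5 were called more negative and 1 more positive, with a median of -1.03. Mt2, a metallothionein that binds zinc and copper, measured 131, 81.4 and 87.9 FPKM in Ktx-7d against 19.5, 14.2 and 31 FPKM in sham-7d, and 394, 678 and 720 FPKM in Ktx-1d against 32.4, 15 and 28.6 FPKM in sham-1d, with a difference of -2.33 ± 0.48 (SE, limma adjusted p = 0.00839). Fth1, the iron-storing ferritin heavy chain, measured 1530, 1410 and 1680 FPKM in Ktx-7d against 2060, 1920 and 2410 FPKM in sham-7d, and 4660, 4480 and 4970 FPKM in Ktx-1d against 2090, 2340 and 2270 FPKM in sham-1d. It was below sham at day 7 and above it at day 1 with no overlap on either day, a difference of -1.54 ± 0.16 (SE, limma adjusted p = 2.49e-05). Cp, a copper-carrying ferroxidase, ran the other way, at 160, 170 and 169 FPKM in Ktx-7d against 8.13, 6.12 and 6.66 FPKM in sham-7d, and 34.9, 33.6 and 24.1 FPKM in Ktx-1d against 8.25, 9.85 and 6.18 FPKM in sham-1d, a difference of 2.59 ± 0.29 (SE, limma adjusted p = 4.38e-05).

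Among stress and cytoskeletal genes, differences were called in both directions. Against 1.31% of all tested genes called more negative and 3.06% more positive, 2 of 17 heat shock genes were called more negative, Cryab at -2.04 and Hsp90aa1 at -1.06, and 1 was called more positive, Hspa5, the endoplasmic reticulum chaperone BiP, at 0.98. Hspa1b, the stress-inducible HSP70, had a difference of -0.88 (limma adjusted p = 0.723). Of 20 immediate early and AP-1 genes, Fosl1 and Myc were called more negative and Ier3 more positive. Myc measured 11.6, 13.9 and 13.2 FPKM in Ktx-7d and 20.1, 39.6 and 26.7 FPKM in Ktx-1d, while Fos, at 0.49, and Atf3, at -0.07, did not pass the test (limma adjusted p = 0.669 and 0.965). Of 22 actin and integrin genes, 22 were called higher at day 7 (35.5% of all tested genes) and 21 at day 1 (29.6%), and 3 were called more negative, Flnc, Tubb6 and Tuba1c. The 22 proteasome genes had 0 calls of the difference, while 5 were called higher at day 7, below the 35.5% of all tested genes, and 21 at day 1, above the 29.6% of all, with a median difference of -0.31. Cdkn1a, the cell cycle inhibitor p21, measured 21.1, 11.4 and 13 FPKM in Ktx-7d and 23.5, 47.3 and 52.9 FPKM in Ktx-1d, a difference of -1.26 (limma adjusted p = 0.177). S100a9, a calprotectin subunit of neutrophils, was the 1 called gene of 7 tested in the neutrophil list, at 1.28, 8.76 and 1.91 FPKM in Ktx-7d and 17.7, 29.9 and 35.9 FPKM in Ktx-1d, a difference of -2.84 ± 0.61 (SE, limma adjusted p = 0.00982).

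The 250 bases before the annotated start were searched on both strands for the AP-1 site TGANTCA, because Fosl1, an AP-1 subunit, was among the named faded rises. It was present in 18 of 112 faded rises with a RefSeq promoter (16.1%), in 13 of 163 grown rises (7.98%), in 6 of 152 recovered falls (3.95%), in 2 of 21 deepened falls (9.52%), in 1 of 36 genes on opposite sides (2.78%) and in 461 of 10415 tested genes with one (4.43%). This is a description of letters in a window, chosen after the values were seen, and it names no bound site. The 3 genes among them that the text describes are shown, as 150 bases 5′ to 3′ on the gene's strand from GRCm38.p6, with the motif in capitals. Sprr1a, a cornified envelope protein, has its window on chromosome 3, 92485898 to 92486047, minus strand, Mt2 on chromosome 8, 94172468 to 94172617, plus strand, and Srxn1 on chromosome 2, 152105374 to 152105523, plus strand.
Sprr1a: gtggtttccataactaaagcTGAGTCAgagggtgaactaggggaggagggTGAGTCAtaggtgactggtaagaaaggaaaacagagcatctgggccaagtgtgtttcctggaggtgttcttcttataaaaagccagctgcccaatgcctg
Mt2: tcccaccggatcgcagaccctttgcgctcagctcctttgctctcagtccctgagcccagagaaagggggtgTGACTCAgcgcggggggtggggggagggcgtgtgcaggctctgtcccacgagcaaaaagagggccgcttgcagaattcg
Srxn1: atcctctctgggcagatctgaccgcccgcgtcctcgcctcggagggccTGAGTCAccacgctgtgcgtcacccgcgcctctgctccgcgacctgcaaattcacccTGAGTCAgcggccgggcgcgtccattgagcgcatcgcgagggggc
Sprr1a and Srxn1 hold the motif at 2 places and Mt2 at 1. In the 250 bases searched, Sprr1a and Mt2 also hold the antioxidant response element TGACNNNGC. Sprr1a measured 12.7, 25.2 and 25.7 FPKM in Ktx-7d against 1.32, 0 and 0.404 FPKM in sham-7d, and 62.1, 130 and 108 FPKM in Ktx-1d against 0.421, 0.629 and 0 FPKM in sham-1d, a difference of -2.35 ± 0.64 (SE, limma adjusted p = 0.0454).

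**Figure D2:**
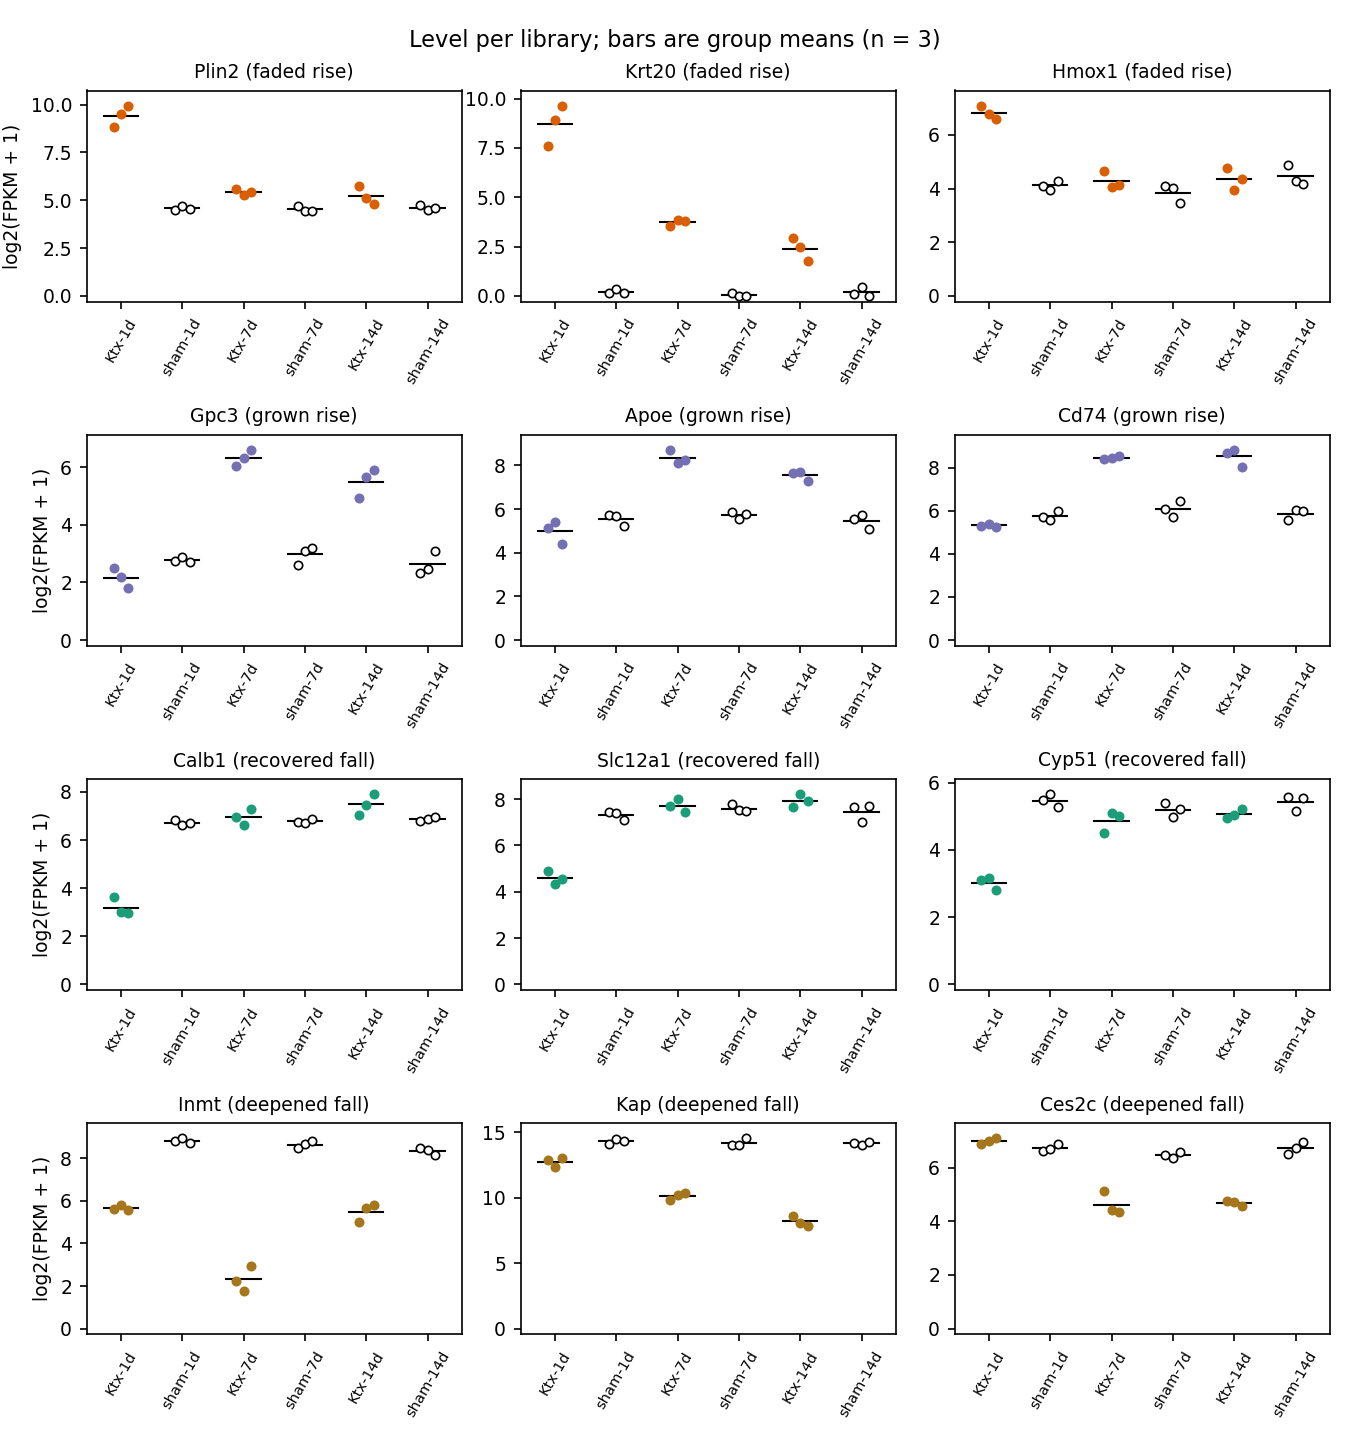
Level of 12 genes in each library, in log2(FPKM + 1), with filled points for Ktx, open points for sham and bars for means of 3 libraries. Each row shows a class: Plin2, Krt20 and Hmox1 stand highest in Ktx-1d, Gpc3, Apoe and Cd74 stand above sham in Ktx-7d and not in Ktx-1d, Calb1, Slc12a1 and Cyp51 are low in Ktx-1d and near sham in Ktx-7d, and Inmt, Kap and Ces2c are lower in Ktx-7d than in Ktx-1d.

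Falls that recovered were led by genes of the distal nephron and the proximal tubule. Calb1, which encodes calbindin, the calcium buffer of distal convoluted and connecting tubule (ENSMUSG00000028222, chromosome 4, 15881264 to 15908064 in GRCm38), measured 125, 98.8 and 155 FPKM in Ktx-7d against 106, 103 and 117 FPKM in sham-7d. At day 1 it measured 11.3, 7 and 6.78 FPKM in Ktx-1d against 114, 97.1 and 104 FPKM in sham-1d. Ktx-7d overlapped sham-7d, and every Ktx-1d library lay below every other library. The effect was 0.19 at day 7 and -3.53 at day 1, a difference of 3.73 ± 0.29 (SE, limma adjusted p = 1.15e-06). Slc12a1, the sodium-potassium-chloride cotransporter of the thick ascending limb and the target of loop diuretics, measured 208, 254 and 173 FPKM in Ktx-7d against 218, 183 and 177 FPKM in sham-7d, and 28.4, 19.1 and 22.7 FPKM in Ktx-1d against 174, 168 and 135 FPKM in sham-1d. It overlapped sham at day 7 and not at day 1, a difference of 2.85 ± 0.28 (SE, limma adjusted p = 2.02e-05).

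Along the distal segments, calls were all toward more positive effects, against 3.06% of all tested genes called more positive and 1.31% more negative. Of 15 tested thick ascending limb genes 7 were called, with a median difference of 1.22, among them Kcnj1, Kng2, Bsnd, Egf and Slc12a1, and 4 were called under median-of-ratios scaling. Egf, the epidermal growth factor made by this segment, measured 16.4, 31.1 and 34 FPKM in Ktx-7d against 338, 303 and 272 FPKM in sham-7d, and 5.99, 5.37 and 5.41 FPKM in Ktx-1d against 359, 259 and 287 FPKM in sham-1d. It was still far below sham at day 7, a difference of 2.02 ± 0.28 (SE, limma adjusted p = 0.000312). Umod, the uromodulin of the same segment, did not follow it: it measured 518, 654 and 543 FPKM in Ktx-7d against 687, 531 and 629 FPKM in sham-7d, and 823, 676 and 581 FPKM in Ktx-1d against 697, 560 and 497 FPKM in sham-1d, with all 4 groups overlapping and a difference of -0.35 (limma adjusted p = 0.532). Of 16 distal convoluted and connecting tubule genes 3 were called, Trpv5, Slc8a1 and Calb1. Slc8a1, the basolateral sodium-calcium exchanger, measured 32.9, 26.5 and 28 FPKM in Ktx-7d against 20.1, 21.3 and 18.2 FPKM in sham-7d, and 3.82, 3.88 and 2.76 FPKM in Ktx-1d against 20.8, 21.5 and 28.5 FPKM in sham-1d. It was above sham at day 7 and below it at day 1 with no overlap, a difference of 2.98 ± 0.22 (SE, limma adjusted p = 1.11e-06).

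Of 13 principal cell genes 4 were called (Scnn1g, Scnn1a, Aqp2 and Kcne1) and of 17 intercalated cell genes 4 (Atp6v0a4, Rhcg, Car12 and Atp6v0d2), against 3 and 2 under median-of-ratios scaling. These calls were all more positive, against 3.06% of all tested genes. Scnn1a, a subunit of the epithelial sodium channel, measured 39.5, 31.7 and 34.9 FPKM in Ktx-7d against 23, 23.6 and 20.6 FPKM in sham-7d, and 14, 15.5 and 11.9 FPKM in Ktx-1d against 26.4, 20.3 and 18.7 FPKM in sham-1d, a difference of 1.25 ± 0.22 (SE, limma adjusted p = 0.00217). Aqp2, the vasopressin-regulated water channel, measured 70.4 ± 6.65 FPKM in Ktx-7d against 19.8 ± 3.52 FPKM in sham-7d, and 26.3 ± 6.01 FPKM in Ktx-1d against 23.3 ± 8.52 FPKM in sham-1d (SD, n = 3 each). The summed FPKM of the principal cell list was 272 to 318 in Ktx-7d, 143 to 163 in sham-7d, 122 to 183 in Ktx-1d and 136 to 179 in sham-1d, so it was above sham at day 7 and overlapped it at day 1. Rhcg, an ammonia channel, had a difference of 0.89 ± 0.22 (SE, limma adjusted p = 0.0241), and Car12, a membrane carbonic anhydrase, one of 1.0 ± 0.24 (SE, limma adjusted p = 0.0191).

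Part of the proximal tubule transporters recovered. Of 41 tested transporters 14 were called more positive (3.06% of all tested genes) and 3 more negative (1.31% of all). The median effect was -0.89 at day 7 and -1.55 at day 1, and 26 were called lower at day 7 (6.01% of all tested genes) against 33 at day 1 (9.56%). Slc34a1, the main sodium-phosphate cotransporter, measured 507, 520 and 526 FPKM in Ktx-7d against 1470, 1520 and 1340 FPKM in sham-7d, and 300, 248 and 164 FPKM in Ktx-1d against 1530, 1410 and 1560 FPKM in sham-1d. It lay below sham on both days with no overlap, a difference of 1.22 ± 0.26 (SE, limma adjusted p = 0.00992). Slc5a8, a sodium-coupled carrier of lactate and other monocarboxylates, measured 25.1, 32.5 and 31.8 FPKM in Ktx-7d against 63.5, 60.7 and 62.8 FPKM in sham-7d, and 8.72, 7.06 and 6.5 FPKM in Ktx-1d against 65, 74.3 and 80.8 FPKM in sham-1d, a difference of 2.10 ± 0.21 (SE, limma adjusted p = 2.23e-05). Aqp1, the constitutive water channel of proximal tubule and thin limb, measured 163, 196 and 169 FPKM in Ktx-7d against 174, 142 and 145 FPKM in sham-7d, and 54.2, 25.5 and 14.6 FPKM in Ktx-1d against 183, 179 and 137 FPKM in sham-1d. Its Ktx-7d libraries overlapped sham, a difference of 2.74 ± 0.45 (SE, limma adjusted p = 0.00121). Slc22a13, an organic anion and urate carrier, measured 5.67, 11 and 7.83 FPKM in Ktx-7d against 24.6, 15.4 and 17.4 FPKM in sham-7d, and 2.97, 0.578 and 0 FPKM in Ktx-1d against 27.3, 29.5 and 18 FPKM in sham-1d, a difference of 2.64 ± 0.50 (SE, limma adjusted p = 0.00412).

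Of 23 tested genes of endocytosis and brush border, 10 were called more positive (3.06% of all tested genes) and 0 more negative, with a median difference of 0.85, and 5 were called more positive under median-of-ratios scaling. Mep1a, the brush border protease meprin alpha, measured 181, 222 and 172 FPKM in Ktx-7d against 434, 380 and 374 FPKM in sham-7d, and 102, 81.1 and 66.6 FPKM in Ktx-1d against 454, 479 and 417 FPKM in sham-1d, a difference of 1.39 ± 0.22 (SE, limma adjusted p = 0.000801). Mme, which encodes neprilysin, passed to the other side of sham, at 50.2, 53.8 and 40.5 FPKM in Ktx-7d against 36.7, 29.6 and 24.1 FPKM in sham-7d, and 10.9, 10.5 and 9.39 FPKM in Ktx-1d against 32.8, 35 and 28.3 FPKM in sham-1d, a difference of 2.22 ± 0.23 (SE, limma adjusted p = 2.23e-05). Lrp2, the endocytic receptor megalin, measured 117, 117 and 104 FPKM in Ktx-7d against 276, 234 and 189 FPKM in sham-7d, and 80.4, 51.6 and 34.8 FPKM in Ktx-1d against 241, 194 and 273 FPKM in sham-1d, and its difference of 1.11 just missed the threshold (limma adjusted p = 0.0531). The 1 called gene of 16 proximal tubule regulators was Ppargc1a, which drives mitochondrial biogenesis, with a difference of 1.43 ± 0.24 (SE, limma adjusted p = 0.00143).

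Part of the metabolic genes of the proximal tubule were called more positive. Of 11 tested genes of gluconeogenesis and fructose use 5 were called more positive and 0 more negative (median difference 1.07), of 30 genes of amino acid and small molecule metabolism 9 and 0 (median 0.75), and of 43 nuclear genes of oxidative phosphorylation 4 and 0 (median 0.41), against 3.06% of all tested genes called more positive. Under median-of-ratios scaling 1 gene of oxidative phosphorylation was called. Of 27 genes of xenobiotic and steroid metabolism 5 were called more positive and 2 more negative (median 0.29), the 2 being Kap and Cyp4b1. Pipox, which oxidises pipecolate and sarcosine, measured 106, 103 and 118 FPKM in Ktx-7d against 128, 119 and 114 FPKM in sham-7d, and 46.9, 30.5 and 21.7 FPKM in Ktx-1d against 135, 134 and 126 FPKM in sham-1d, a difference of 1.89 ± 0.29 (SE, limma adjusted p = 0.000709). Akr1c21, a hydroxysteroid dehydrogenase of a family with similar copies, measured 364, 478 and 400 FPKM in Ktx-7d against 907, 894 and 980 FPKM in sham-7d, and 123, 47.3 and 61.8 FPKM in Ktx-1d against 825, 1090 and 939 FPKM in sham-1d, a difference of 2.55 ± 0.34 (SE, limma adjusted p = 0.000203). Hao2, a peroxisomal hydroxyacid oxidase, had an effect of -0.76 at day 7 and -3.28 at day 1. Serpina1f, a serpin gene, had an effect of 0.46 at day 7 and -2.95 at day 1. Ndufb8, a complex I subunit, measured 141, 158 and 158 FPKM in Ktx-7d against 106, 92.4 and 135 FPKM in sham-7d, and 80.6, 85.1 and 64.1 FPKM in Ktx-1d against 122, 138 and 128 FPKM in sham-1d, a difference of 1.21 ± 0.19 (SE, limma adjusted p = 0.00093). The calls for Cox7b and Mdh1 did not hold after median-of-ratios scaling, where limma gave adjusted p of 0.0809 and 0.0659.

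Genes of cholesterol synthesis were in part called more positive. In this pathway acetyl-CoA is built into sterols, and the transcription factor SREBP2 raises its enzymes when cell sterol is low. Of 20 tested genes 11 were called more positive and 0 more negative, a median difference of 1.38 against 0.09 over all genes, and 11 were called higher and 0 lower at day 7 against 0 higher and 8 lower at day 1. Shares over all tested genes were 35.5% higher and 6.01% lower at day 7, and 29.6% higher and 9.56% lower at day 1. For the difference they were 3.06% more positive and 1.31% more negative. Under median-of-ratios scaling, 8 of the 20 were called more positive. Cyp51, the lanosterol demethylase (ENSMUSG00000001467, chromosome 5, 4081145 to 4104746 in GRCm38), measured 21.5, 33 and 30.9 FPKM in Ktx-7d against 41.1, 30.7 and 36.1 FPKM in sham-7d, and 7.52, 7.9 and 6.03 FPKM in Ktx-1d against 43.6, 49.4 and 37.6 FPKM in sham-1d. Ktx-1d lay below all other libraries, and the difference was 2.11 ± 0.25 (SE, limma adjusted p = 6.41e-05). Hmgcs1, which makes hydroxymethylglutaryl-CoA in the cytosol, measured 144, 211 and 199 FPKM in Ktx-7d against 152, 168 and 192 FPKM in sham-7d, and 71.7, 62.9 and 62.2 FPKM in Ktx-1d against 184, 192 and 215 FPKM in sham-1d. Its Ktx-7d libraries overlapped sham, a difference of 1.67 ± 0.22 (SE, limma adjusted p = 0.000182). Idi1, the isopentenyl diphosphate isomerase, measured 21, 40.6 and 35.6 FPKM in Ktx-7d against 40.9, 41.9 and 39.2 FPKM in sham-7d, and 9.04, 5.74 and 5.67 FPKM in Ktx-1d against 42.6, 61.2 and 45 FPKM in sham-1d, a difference of 2.33 ± 0.31 (SE, limma adjusted p = 0.000203). Insig1, which retains the SREBP complex in the endoplasmic reticulum, measured 22.2, 28 and 28.3 FPKM in Ktx-7d against 14.8, 14.3 and 8.48 FPKM in sham-7d, and 5.53, 3.1 and 4.52 FPKM in Ktx-1d against 15, 19.5 and 7.85 FPKM in sham-1d. It was above sham at day 7 and below it at day 1, a difference of 2.47 ± 0.44 (SE, limma adjusted p = 0.0027). Idi1 and Insig1 were picked after their values were seen.

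The NF-Y box CCAAT, found beside sterol elements in many promoters of this pathway, was present in the 250 bases before the start of 7 of the 7 called cholesterol genes with a RefSeq promoter, in 11 of 12 tested ones (91.7%) and in 3800 of 10415 tested genes (36.5%). The sterol element core TCACNCCAC was present in 1 of the 12, Hmgcs1, and in 0.97% of all. Of the 4 called genes with a promoter and the largest differences, the 2 whose windows reach no more than 30 bases into the annotated gene are shown, as 150 bases 5′ to 3′ on the gene's strand from GRCm38.p6, with CCAAT, or ATTGG where it lies on the other strand, in capitals. Insig1 has its window on chromosome 5, 28071162 to 28071311, plus strand and Hmgcs1 on chromosome 13, 119690201 to 119690350, plus strand.
Insig1: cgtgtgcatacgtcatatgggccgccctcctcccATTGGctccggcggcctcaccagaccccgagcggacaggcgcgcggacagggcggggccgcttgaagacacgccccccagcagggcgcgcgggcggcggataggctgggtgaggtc
Hmgcs1: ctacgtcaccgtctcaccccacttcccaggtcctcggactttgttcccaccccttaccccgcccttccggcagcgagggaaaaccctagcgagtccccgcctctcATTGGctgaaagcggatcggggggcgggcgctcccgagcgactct
Each window holds the box at 1 place, while the 250 bases searched hold it at 3 places for Hmgcs1 and at 1 for Insig1. The Hmgcs1 window also holds the sterol element core, which is not in capitals. No factor's binding was measured.

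**Figure D3:**
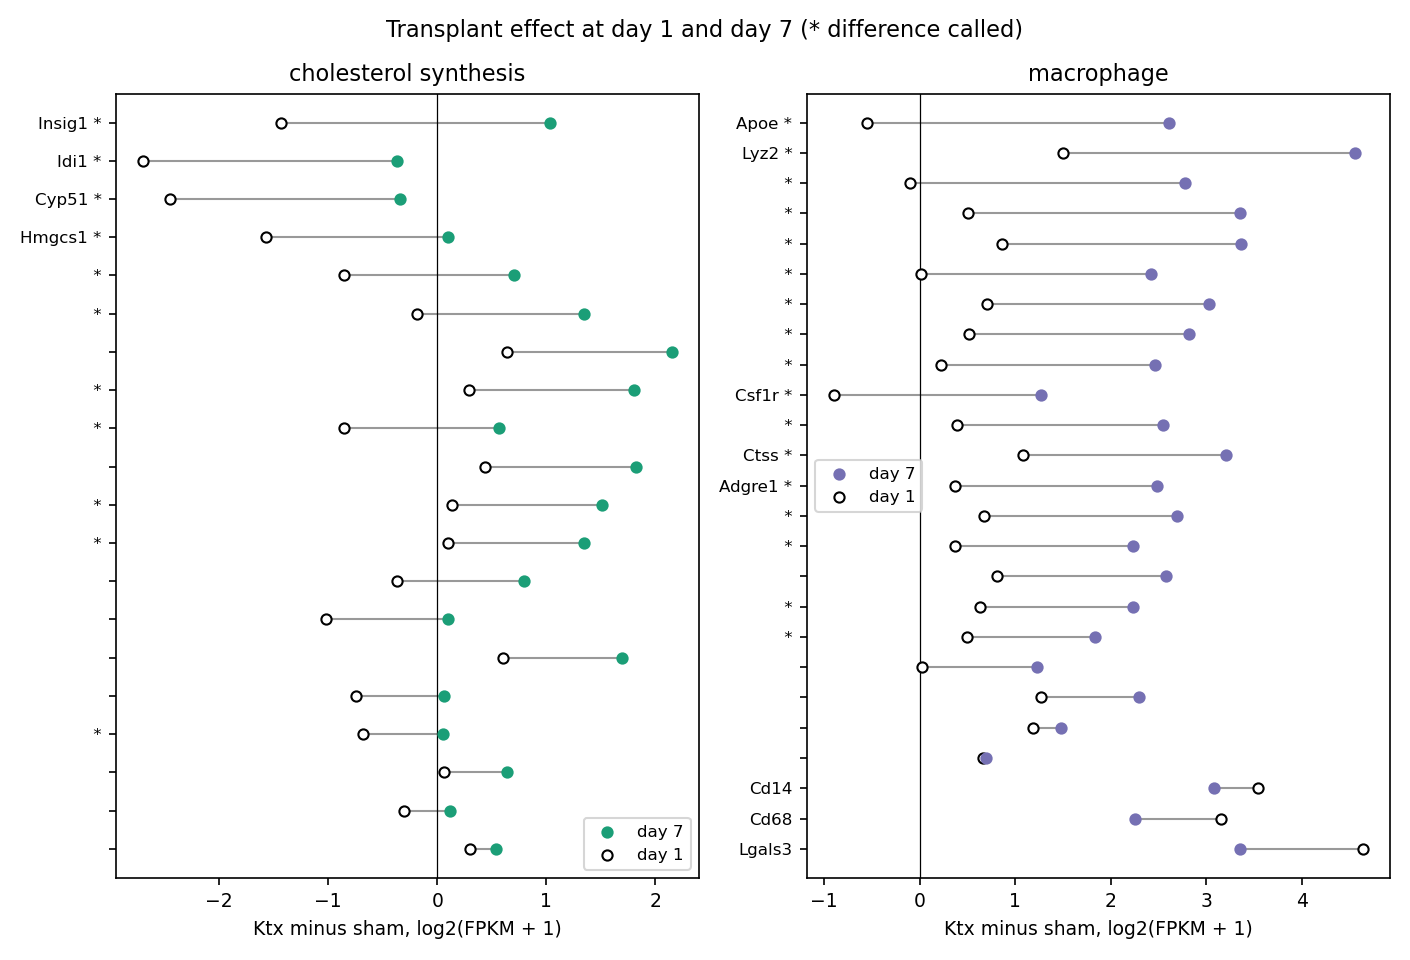
Transplant effect in log2(FPKM + 1) at day 7 (filled) and at day 1 (open) for the 20 tested cholesterol synthesis genes and the 25 tested macrophage genes, with an asterisk for a called difference and names for the genes that the text names. The filled point lies right of the open point for all 20 cholesterol genes, and for the macrophage genes except Cd14, Cd68 and Lgals3.

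Rises that grew were led by macrophage, complement and matrix genes. Gpc3, the heparan sulfate proteoglycan glypican 3 (ENSMUSG00000055653, chromosome X, 52272426 to 52613950 in GRCm38), measured 64.7, 78.5 and 95.7 FPKM in Ktx-7d against 5.15, 7.52 and 8.26 FPKM in sham-7d. At day 1 it measured 4.61, 3.58 and 2.54 FPKM in Ktx-1d against 5.66, 6.31 and 5.47 FPKM in sham-1d. Ktx-7d lay far above every other library of these days, and the effect was 3.34 at day 7 and -0.60 at day 1, a difference of 3.94 ± 0.36 (SE, limma adjusted p = 8.62e-06). Ktx-14d measured 29.6, 48.9 and 58.2 FPKM. Ptgds, a prostaglandin D synthase, measured 25.4, 14.2 and 25.2 FPKM in Ktx-7d against 1.92, 0 and 1.63 FPKM in sham-7d, and 1.64, 0.932 and 0.354 FPKM in Ktx-1d against 1.32, 0.445 and 1.69 FPKM in sham-1d, a difference of 3.60 ± 0.70 (SE, limma adjusted p = 0.00504). C1qtnf5, a secreted protein with a complement C1q-like domain, overlaps the gene Mfrp, so its level is uncertain. It measured 11.1, 5.77 and 7.72 FPKM in Ktx-7d and was at or near 0 in the other groups of these days, a difference of 3.12 ± 0.34 (SE, limma adjusted p = 3.11e-05).

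Of 25 tested macrophage genes 17 were called more positive (3.06% of all tested genes) and 0 more negative, a median difference of 2.11. At day 7, 24 were called higher, against 35.5% of all tested genes. At day 1, 8 were called higher, which is near the 29.6% of all. Lyz2, the lysozyme of macrophages and neutrophils, which has a close copy in Lyz1, measured 252, 133 and 110 FPKM in Ktx-7d against 9.21, 2.09 and 8.17 FPKM in sham-7d, and 15, 12.1 and 14.6 FPKM in Ktx-1d against 6.67, 2.38 and 4.61 FPKM in sham-1d, a difference of 3.06 ± 0.62 (SE, limma adjusted p = 0.00678). Apoe, the lipid carrier apolipoprotein E, which macrophages secrete, measured 418, 272 and 299 FPKM in Ktx-7d against 57.3, 45.9 and 54.5 FPKM in sham-7d, and 34.6, 42.1 and 19.9 FPKM in Ktx-1d against 52.5, 49.9 and 36.3 FPKM in sham-1d. Ktx-7d stood above all other libraries, and the effect was 2.61 at day 7 and -0.55 at day 1, a difference of 3.16 ± 0.34 (SE, limma adjusted p = 2.72e-05). Adgre1, which encodes F4/80, measured 12.9, 9.65 and 6.05 FPKM in Ktx-7d against 0.862, 0.552 and 1.09 FPKM in sham-7d, and 0.519, 0.987 and 0.921 FPKM in Ktx-1d against 0.0994, 0.398 and 0.738 FPKM in sham-1d, a difference of 2.11 ± 0.41 (SE, limma adjusted p = 0.00517). Csf1r, the receptor on which macrophages depend, measured 29.1, 20.9 and 13.3 FPKM in Ktx-7d against 8.38, 7.81 and 7.17 FPKM in sham-7d, and 4.14, 3.61 and 3.59 FPKM in Ktx-1d against 8.09, 8.36 and 7.3 FPKM in sham-1d. It was above sham at day 7 and below it at day 1 with no overlap, a difference of 2.17 ± 0.29 (SE, limma adjusted p = 0.000203). Ly86, a partner of a Toll-like receptor homologue, had a difference of 2.90 ± 0.51 (SE, limma adjusted p = 0.0025).

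The summed FPKM of the 26 macrophage genes was 828 to 1260 in Ktx-7d, 93.2 to 131 in sham-7d, 310 to 526 in Ktx-1d and 90.4 to 108 in sham-1d. The 7 erythrocyte genes found summed to 548 to 882 FPKM in Ktx-7d, 212 to 367 in sham-7d, 204 to 346 in Ktx-1d and 204 to 268 in sham-1d. Both sums were above sham at day 7, but at day 1 only the macrophage sum was, and the erythrocyte sum overlapped sham. Hbb-bt, a beta globin of a family with similar copies, had a difference of 1.60 ± 0.45 (SE, limma adjusted p = 0.0482), with an adjusted p of 0.0862 by limma after median-of-ratios scaling. The part of blood in these results was not tested. T and NK cell genes had 0 calls among 7 tested of 24, and summed to 7.53 to 10.1 FPKM in Ktx-7d, 3.70 to 10.4 in sham-7d, 0.749 to 6.32 in Ktx-1d and 1.39 to 2.73 in sham-1d. Neutrophil genes summed to 11.1 to 20.7 FPKM in Ktx-7d, 1.66 to 4.01 in sham-7d, 32.9 to 80.6 in Ktx-1d and 1.77 to 2.56 in sham-1d.

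Part of the MHC class II and complement genes had more positive effects at day 7, against 3.06% of all tested genes called more positive. Of 9 tested genes of MHC class II 4 were called, all more positive: H2-Ab1, H2-Eb1, Cd74 and H2-Aa, of which the H2 genes share sequence within their family. Cd74, the invariant chain of class II, measured 338, 350 and 370 FPKM in Ktx-7d against 67.1, 50.5 and 85.4 FPKM in sham-7d, and 38.1, 41 and 37.5 FPKM in Ktx-1d against 51.9, 46.8 and 62.5 FPKM in sham-1d. Ktx-7d lay above every other library of these days, a difference of 2.84 ± 0.28 (SE, limma adjusted p = 2.02e-05). Ktx-14d measured 413, 450 and 262 FPKM, so the rise was still present at day 14. H2-Aa, a class II alpha chain, measured 128, 161 and 141 FPKM in Ktx-7d against 35.5, 24.5 and 34.2 FPKM in sham-7d, and 17.4, 11.7 and 13.6 FPKM in Ktx-1d against 28.6, 19.4 and 38.6 FPKM in sham-1d. It was above sham at day 7 and below it at day 1 with no overlap, a difference of 3.10 ± 0.33 (SE, limma adjusted p = 2.72e-05). Of 16 tested interferon gamma response genes 0 were called in the difference, with a median of 0.17. Of 17 complement genes 9 were called more positive and 0 more negative, a median difference of 1.59. C3, the central complement component, measured 150, 211 and 299 FPKM in Ktx-7d against 1.97, 2.45 and 1.97 FPKM in sham-7d, and 69.4, 43.6 and 16.1 FPKM in Ktx-1d against 1.66, 2.37 and 3.17 FPKM in sham-1d. Both transplant groups lay above sham, a difference of 2.59 ± 0.49 (SE, limma adjusted p = 0.0041). Serping1, the C1 inhibitor, had a difference of 2.41 ± 0.32 (SE, limma adjusted p = 0.000197), and Cfi, the protease factor I, one of 3.01 ± 0.44 (SE, limma adjusted p = 0.000435).

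Matrix genes were in part high at day 1 and higher at day 7. Of 18 collagen genes 5 were called more positive (Col1a2, Col14a1, Col6a2, Col6a1 and Col12a1), and of 26 other matrix genes 9, against 3.06% of all tested genes. In either list 0 were called more negative, and the medians were 0.70 and 0.86. Col6a1, a chain of the pericellular collagen VI, measured 27, 18.8 and 15.3 FPKM in Ktx-7d against 1.65, 1.63 and 1.77 FPKM in sham-7d, and 3.32, 5.7 and 3.97 FPKM in Ktx-1d against 1.11, 0.998 and 2.48 FPKM in sham-1d, a difference of 1.86 ± 0.36 (SE, limma adjusted p = 0.00447). Mgp, the matrix Gla protein that inhibits calcification, measured 343, 294 and 286 FPKM in Ktx-7d against 34.7, 35.4 and 45.1 FPKM in sham-7d, and 43.1, 53.6 and 84.4 FPKM in Ktx-1d against 25.6, 24.8 and 38.1 FPKM in sham-1d, a difference of 1.99 ± 0.30 (SE, limma adjusted p = 0.000567). Dcn, the proteoglycan decorin, measured 18.8, 21.6 and 19.8 FPKM in Ktx-7d against 6.43, 6.46 and 9.21 FPKM in sham-7d, and 3.89, 2.69 and 4.93 FPKM in Ktx-1d against 6.02, 5.38 and 8.32 FPKM in sham-1d. It was above sham at day 7 and below it at day 1 with no overlap, a difference of 2.0 ± 0.29 (SE, limma adjusted p = 0.00044). Col1a1, the main chain of fibrillar collagen I, had values of 61.2, 39.9 and 23 FPKM in Ktx-7d and 9.22, 20.7 and 11.5 FPKM in Ktx-1d, and its difference of 1.37 did not pass the test (limma adjusted p = 0.081). Vcam1, an adhesion molecule, had a difference of 1.14 (limma adjusted p = 0.062). The 14 tested myofibroblast and pericyte genes and the 18 endothelial genes had 0 calls each, against 4.37% of all tested genes. With lists this short, 0 calls does not set them apart from all genes. Summed FPKM of the 18 myofibroblast and pericyte genes found was 127 to 229 in Ktx-7d, 68.1 to 77.7 in sham-7d, 109 to 138 in Ktx-1d and 45.5 to 75.4 in sham-1d.

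Of 28 tested mitosis genes, 27 were called higher at day 7, above the 35.5% of all tested genes, and 2 at day 1, below the 29.6% of all, with a median difference of 1.13. Yet the difference itself was called more positive for 2, Mki67 and Ube2c, against 3.06% of all tested genes. Mki67, the proliferation marker Ki-67, measured 7.41, 6.55 and 2.09 FPKM in Ktx-7d against 1.07, 0.584 and 0.485 FPKM in sham-7d, and 0.683, 0.469 and 0.188 FPKM in Ktx-1d against 0.502, 0.574 and 0.746 FPKM in sham-1d. Ktx-7d lay above the other groups of these days, with replicate 3 lowest, and the difference was 1.94 ± 0.43 (SE, limma adjusted p = 0.0121). The call for Ube2c did not hold after median-of-ratios scaling, where limma gave an adjusted p of 0.0948. The 29 DNA replication genes were called higher for 23 at day 7 (35.5% of all tested genes) and for 21 at day 1 (29.6% of all), with a median difference of 0.02 and 0 calls.

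**Figure D4:**
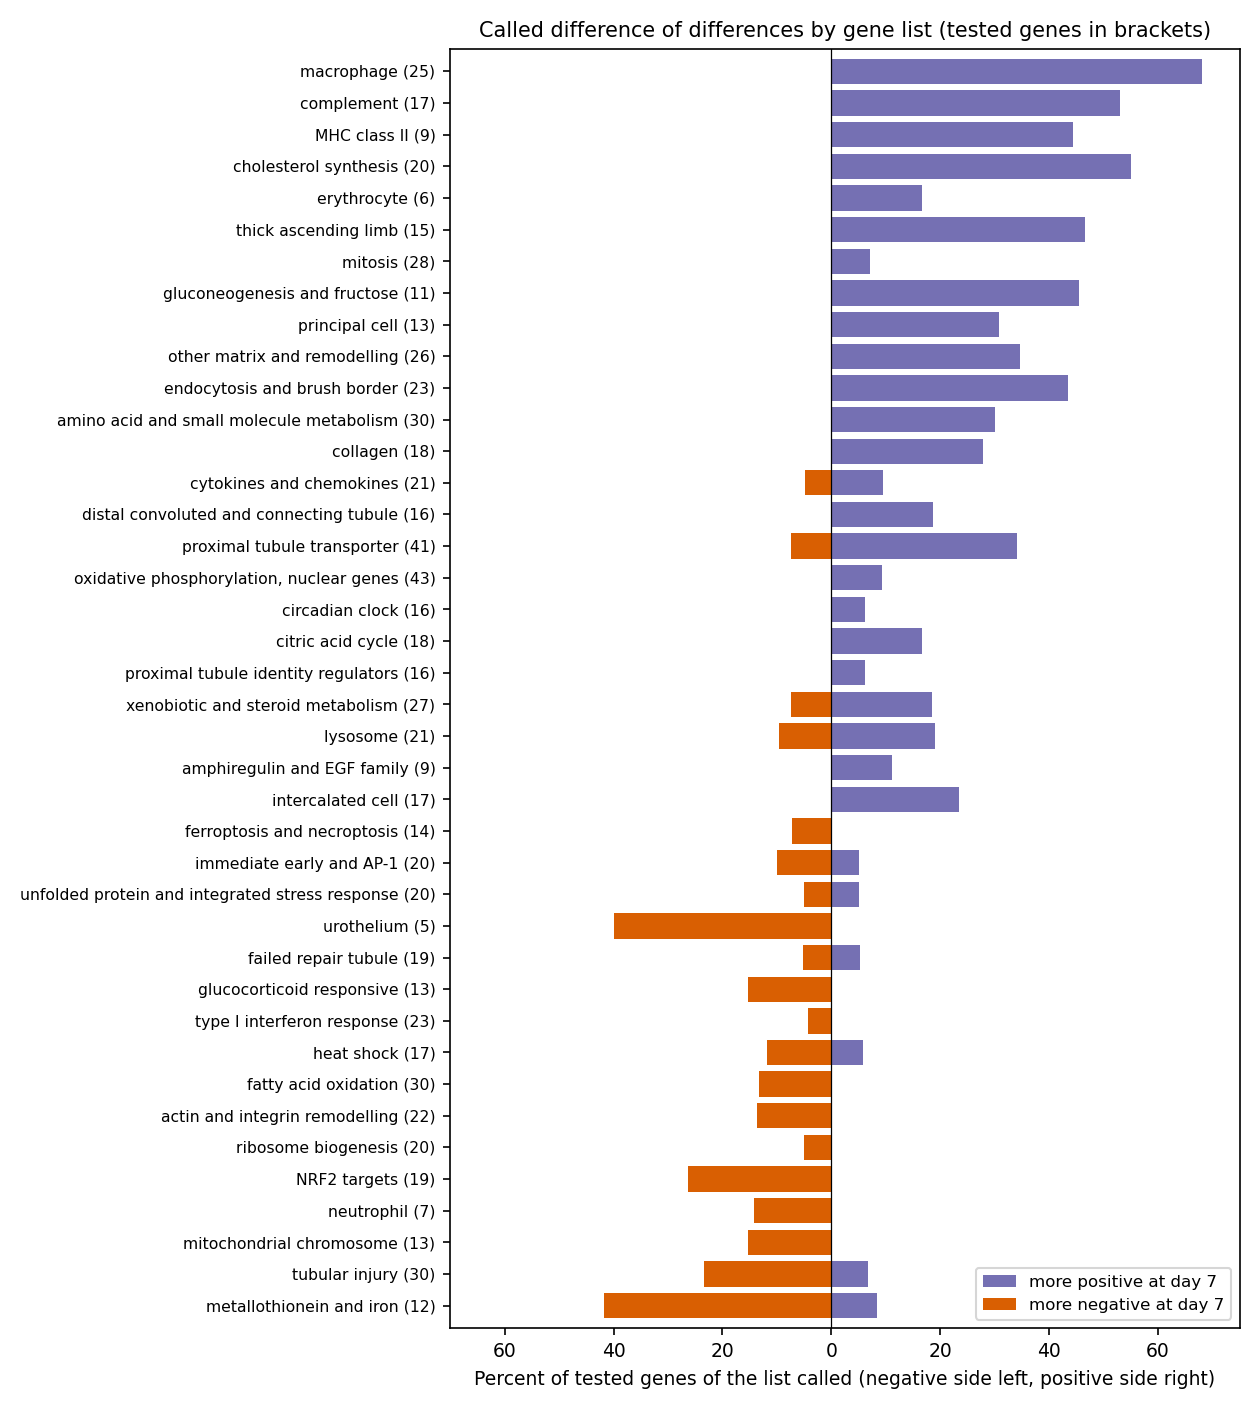
Share of the tested genes of each list called in the difference of differences, more positive at day 7 to the right and more negative to the left, with lists ordered by median difference and tested genes in brackets. Lists with 0 calls are not drawn, macrophage genes have the longest bar to the right at 17 of 25, and metallothionein and iron genes the longest to the left at 5 of 12.

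Falls that deepened were few and held proximal tubule enzymes and carriers, among them genes that in mice are known to be raised by androgen or to differ by sex. Kap, the kidney androgen-regulated protein (ENSMUSG00000032758, chromosome 6, 133849851 to 133853762 in GRCm38), measured 906, 1200 and 1280 FPKM in Ktx-7d against 16500, 16500 and 23600 FPKM in sham-7d. At day 1 it measured 7550, 5150 and 8320 FPKM in Ktx-1d against 17700, 22700 and 20700 FPKM in sham-1d. The 3 transplant libraries of each day lay below sham, and those of day 7 below those of day 1, a difference of -2.50 ± 0.30 (SE, limma adjusted p = 8.34e-05). Inmt, which methylates indolamines, measured 3.77, 2.42 and 6.7 FPKM in Ktx-7d against 353, 401 and 451 FPKM in sham-7d, and 47.8, 54.3 and 46.4 FPKM in Ktx-1d against 456, 488 and 424 FPKM in sham-1d, the largest day 7 fall among the genes named here, with an effect of -6.32 at day 7 and -3.18 at day 1 and a difference of -3.14 ± 0.33 (SE, limma adjusted p = 2.57e-05). Cyp2a4, a steroid hydroxylase with close copies, measured 4.27, 6.99 and 7.5 FPKM in Ktx-7d against 176, 132 and 190 FPKM in sham-7d, and 90.7, 65.4 and 44.3 FPKM in Ktx-1d against 200, 184 and 128 FPKM in sham-1d, a difference of -3.17 ± 0.40 (SE, limma adjusted p = 0.000132). Dnase1, the secreted nuclease, measured 9.03, 17.1 and 18.4 FPKM in Ktx-7d against 349, 339 and 532 FPKM in sham-7d, and 95.1, 109 and 121 FPKM in Ktx-1d against 420, 437 and 535 FPKM in sham-1d, a difference of -2.63 ± 0.32 (SE, limma adjusted p = 8.74e-05).

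The carriers Slco1a1 and Slc7a13 fell further too. Slco1a1, an organic anion carrier, measured 0.791, 1.11 and 1.41 FPKM in Ktx-7d against 51.4, 71.2 and 59.6 FPKM in sham-7d, and 21.8, 16.4 and 17.2 FPKM in Ktx-1d against 95.7, 89.7 and 121 FPKM in sham-1d, a difference of -2.47 ± 0.31 (SE, limma adjusted p = 0.000126). Slc7a13, an aspartate, glutamate and cystine carrier of the late proximal tubule, measured 2.94, 3.9 and 2.89 FPKM in Ktx-7d against 307, 289 and 307 FPKM in sham-7d, and 19.3, 12.8 and 16.7 FPKM in Ktx-1d against 343, 426 and 331 FPKM in sham-1d, a difference of -1.74 ± 0.23 (SE, limma adjusted p = 0.000153). Ces2c, a carboxylesterase, was near sham at day 1, at 33.9, 20.3 and 19.2 FPKM in Ktx-7d against 87.4, 80.8 and 96.1 FPKM in sham-7d, and 116, 126 and 135 FPKM in Ktx-1d against 98.6, 103 and 118 FPKM in sham-1d. Its Ktx-7d libraries lay below sham-7d and its Ktx-1d libraries overlapped sham-1d, a difference of -2.09 ± 0.25 (SE, limma adjusted p = 6.41e-05). Cyp2d12 and Cyp4b1, both cytochrome P450 genes, had differences of -2.53 ± 0.37 (SE, limma adjusted p = 0.00044) and -1.32 ± 0.31 (SE, limma adjusted p = 0.0176). Of 13 genes of the mitochondrial chromosome 2 were called, both more negative (1.31% of all tested genes), with a median of -0.65: mt-Nd2 at -0.97 and mt-Nd4 at -0.81, subunits of complex I. All 13 were called lower at day 7 (6.01% of all tested genes) and 12 at day 1 (9.56%). The sign for mt-Nd4 depended on scaling, with a difference of 0.08 under quantile normalization.

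The genes on opposite sides of sham were 50 that were lower at day 1 and higher at day 7 and 8 that ran the other way. Slc7a12, an amino acid carrier-like protein of the proximal tubule that in mice differs by sex, measured 64.9, 102 and 47.2 FPKM in Ktx-7d against 10.7, 7.56 and 6.28 FPKM in sham-7d, and 0.674, 0.539 and 0 FPKM in Ktx-1d against 2.2, 10.1 and 2.63 FPKM in sham-1d. The effect was 2.94 at day 7 and -1.88 at day 1, a difference of 4.82 ± 0.71 (SE, limma adjusted p = 0.000531). Angptl7, a secreted angiopoietin-like protein, measured 0, 0.244 and 0.0588 FPKM in Ktx-7d against 2.79, 1.79 and 2.35 FPKM in sham-7d, and 6.46, 26.2 and 60.5 FPKM in Ktx-1d against 2.37, 1.8 and 2.85 FPKM in sham-1d, a difference of -4.39 ± 0.69 (SE, limma adjusted p = 0.000889). Ktx-1d replicate 1 was the lowest of its group. Fbln5, an elastic fibre protein, measured 74.9, 16.6 and 18.2 FPKM in Ktx-7d against 12.1, 7.72 and 8.64 FPKM in sham-7d, and 3.8, 2.63 and 2.39 FPKM in Ktx-1d against 8.39, 11.2 and 12.5 FPKM in sham-1d, a difference of 3.08 ± 0.63 (SE, limma adjusted p = 0.007), with Ktx-7d replicate 1 far above the other 2. Under median-of-ratios scaling 13 of the 58 genes fell in the same class, while 54 of them had the same call of the difference, so the side of sham depends on the scaling more than the change between days does.

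The day 14 libraries give a reading of the classes from samples that neither effect used, apart from the shared estimate of spread. Of the 160 faded rises, 68 were called higher than sham at day 14 (42.5%, against 22.3% of all tested genes) and 5 lower, with a median effect of 0.48. Of the 220 grown rises, 181 were called higher (82.3%) and 3 lower, median 1.42. Of the 196 recovered falls, 70 were called lower (35.7%, against 5.12% of all) and 8 higher, median -0.29, and of the 32 deepened falls 28 were called lower (87.5%), median -1.44. Among single genes, Inmt had effects of -3.18, -6.32 and -2.85 at days 1, 7 and 14, Kap of -1.56, -4.06 and -5.98, and Egf of -5.51, -3.49 and -1.31. Hspa5 had effects of 0.01, 0.99 and -1.08. For this gene sham-14d, at 353, 261 and 239 FPKM, lay above sham-7d, at 152, 127 and 173 FPKM. Ktx-14d measured 145, 145 and 109 FPKM, within or below the range of sham-7d. Interferon gamma response genes, with 2 and 7 of 16 called higher at days 1 and 7, had 14 called higher at day 14. The shares of all tested genes called higher at days 1, 7 and 14 were 29.6%, 35.5% and 22.3%.

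At day 7 itself, 84 of the 160 faded rises were still called higher (52.5%), with a median of 28.7% of the day 1 effect left (quartiles 5.71% and 48.1%). Of the 196 recovered falls 64 were still called lower (32.7%), with a median of 15.8% left (quartiles -13.8% and 31.7%). Of the 220 grown rises 32 were already called higher at day 1, and of the 32 deepened falls 19 were already called lower. These shares use the values that chose the classes and are given as description. The classes also differed in kind: the median summed exon length was 2574 bases for faded rises, 4065 for grown rises, 3528 for recovered falls and 2264 for deepened falls, against 3769 over all tested genes, and the median mean FPKM was 18.6, 4.97, 31.7 and 72.4 in the same order, against 5.98.

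**Figure D5:**
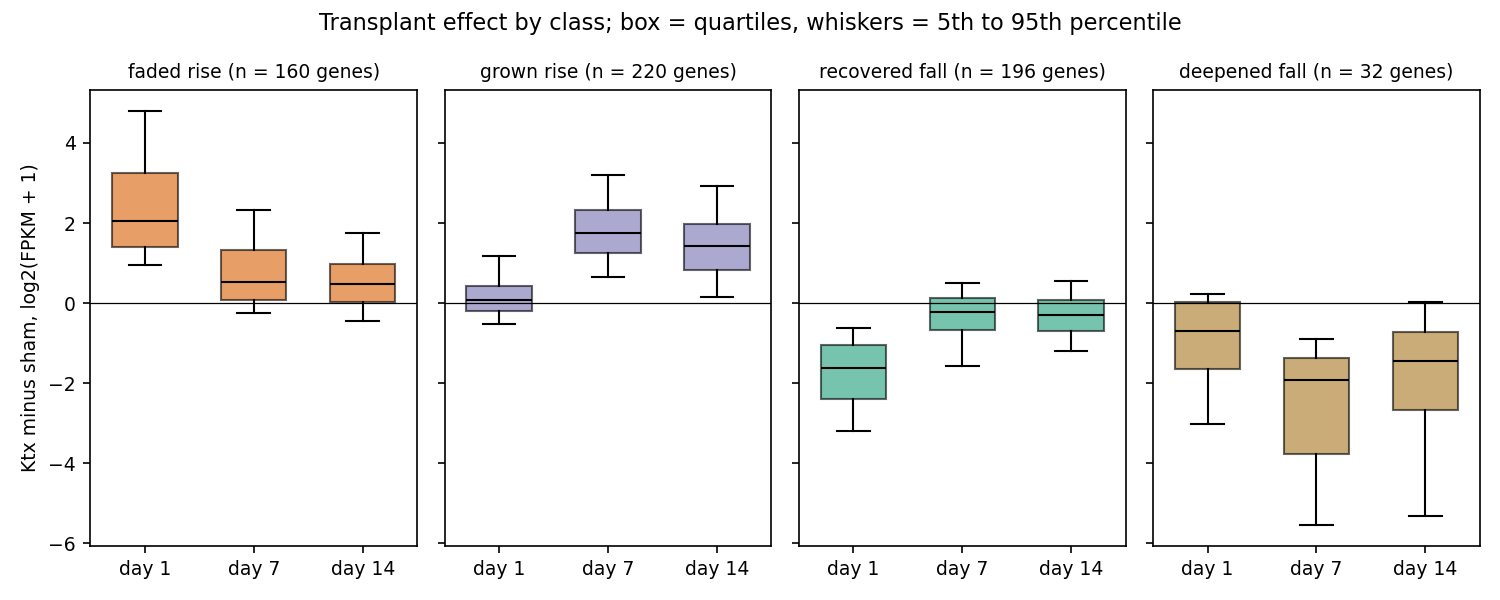
Transplant effect, Ktx minus sham in log2(FPKM + 1), at day 1, day 7 and day 14 for the genes of each class, with boxes for quartiles, lines for medians and whiskers from the 5th to the 95th percentile. Day 1 and day 7 chose the classes, and at day 14 the median was 0.48 for faded rises, 1.42 for grown rises, -0.29 for recovered falls and -1.44 for deepened falls.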

How the data were processed

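The 18 libraries of total RNA from mouse renal cortex fall in 6 groups of 3 by their titles. The authors deposited FPKM for each gene in each library. Per the submitters' processing notes the genome build was mm10 and DESeq2 was used in an unstated role, while the aligner and quantifier are not named there. Low values were whole multiples of 1 fragment for 14% to 17.9% of genes (tolerance 0.05), so reads could not be recovered, and with depth unknown no counting intervals are printed. Capital A and N had been lost from identifiers, which were restored. Of 54848 rows 54819 matched GENCODE M21 (GRCm38, the assembly of mm10), and 17 rows of 7 repeated identifiers were left out. No pair of libraries held identical values.

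The 15278 genes at FPKM 1 or more in 3 or more libraries were fitted as log2(FPKM + 1), computed from the deposited FPKM, with limma 3.58.1 in R 4.3.3. The fit had 6 group means over 18 libraries and robust moderation that followed the mean. Fold changes on this scale understate those of low genes. The threshold for the difference of differences was an adjusted p of 0.05 (Benjamini-Hochberg over all genes), and classes were set by the calls of the difference and of each day's effect. The fit was checked on simulated data, with 50 genes changed per size, all among genes of higher level. It recovered 0% of changes of 0.5 log2, 38% of 1, 90% of 2 and 100% of 3, and called 4 unchanged genes. A gene list with 0 calls can therefore still hold small changes. Promoters came from RefSeq (GRCm38.p6), with the first row kept per gene, for 10415 of the tested genes, and 8 motifs were searched. Tables and figures used Python 3.11.15, pandas 2.3.3 and matplotlib 3.10.9.

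Members, the 59 gene lists (1156 entries) and tests were chosen with earlier results of these data known. The genes named are, per class, the 7 largest differences with a group mean of at least 5 FPKM and Ktx-7d libraries all on the called side of Ktx-1d; the 5 largest on opposite sides by the same rule; a panel; and up to 2 called genes per list and direction with the smallest adjusted p. Idi1 and Insig1 were added after their values were seen, and other genes are named as called members of a list. Some genes picked by this rule are not reported here. Same-numbered libraries of different groups were compared by their deviations from group means (18 pairs, correlations from -0.0986 to 0.101), so numbers were not taken as pairs. Alternatives were other pseudocounts, filters, scalings and moderation, array weights, the 12 libraries alone, a replicate block, no sham, a minimum change and each library left out.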

Additional observations from a re-analysis of the deposited data

Results flagged for a closer look

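The transplant effect differed between day 7 and day 1, by the test of the difference itself, in 467 genes toward more positive and in 200 toward more negative effects. Among the genes called on opposite sides of sham, 5 stand out by their size and were picked by the naming rule. Slc7a12 had a difference of 4.82, Fbln5 of 3.08, H2-Aa of 3.10 and Slc8a1 of 2.98 on the log2(FPKM + 1) scale, each above sham at day 7 and below it at day 1. Angptl7 had a difference of -4.39, below sham at day 7 and above it at day 1. The cause of these differences was not tested.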

How the results depend on the processing

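Counts of genes past the threshold moved by more than 1.5 times in these cases. More positive effects numbered 300 with no filter on low values, 830 on the TPM scale (each library rescaled to an equal sum, where the median of all genes moved to 0.236), 290 with the replicate block and median-of-ratios scaling together, and 1528 when Ktx-7d was set against Ktx-1d with no sham, which gave 783 more negative ones. Grown rises numbered 142 at a mean FPKM of at least 5, 123 under median-of-ratios scaling, 451 on the TPM scale, 341 with array weights and 115 with the block and median-of-ratios scaling. Recovered falls numbered 108 with no filter. Deepened falls numbered 55 under median-of-ratios scaling, 58 under quantile normalization, 57 with array weights and 56 with the block and that scaling. Genes on opposite sides numbered 33 with no filter, 35 under median-of-ratios scaling, 35 under quantile normalization, 94 on the TPM scale and 34 with the block and median-of-ratios scaling. With 1 library left out, more positive effects ranged from 315 to 582, more negative from 143 to 291, faded rises from 110 to 250, grown rises from 145 to 230, recovered falls from 125 to 298, deepened falls from 26 to 46, opposite sides from 38 to 59 and sham calls from 0 to 1. The replicate block alone, with numbers that do not pair the libraries, gave 435 more positive and 193 more negative effects. Of 104 named and called genes, 81 kept their call in every alternative run and 6 lost it under median-of-ratios scaling. The difference of mt-Nd4 changed sign under quantile normalization, to 0.08. The cause of these changes was not tested, and depth, which limits low genes, is unknown.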

Other observations

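Several other gene lists had 0 called differences, against 4.37% of all tested genes called, which does not show that their genes were unchanged. Of 18 tested p53 targets, 19 hypoxia response genes, 40 cytosolic ribosomal protein genes, 15 genes of MHC class I presentation and 12 podocyte genes, 0 were called by limma in the difference of differences, with medians of 0.06, 0.06, 0.01, 0.01 and 0.13. Most ribosomal protein genes were high on both days, with 39 of 40 called higher at day 7 (35.5% of all tested genes) and 39 at day 1 (29.6%). In the lysosome list 4 of 21 were called more positive and 2 more negative, against 3.06% and 1.31% of all tested genes, and 2 and 2 under median-of-ratios scaling. Ctsk, the matrix-degrading cathepsin K, measured 12.5, 7.02 and 6.04 FPKM in Ktx-7d and 1.73, 1.09 and 0.485 FPKM in Ktx-1d, a difference of 2.09 ± 0.42 (SE, limma adjusted p = 0.00599). Ctsb, the ubiquitous cathepsin B, measured 128, 104 and 111 FPKM in Ktx-7d and 209, 245 and 177 FPKM in Ktx-1d, a difference of -0.87 ± 0.17 (SE, limma adjusted p = 0.00484). Other motifs were searched before the start. The antioxidant response element TGACNNNGC was present in 15.2% of faded rises with a promoter and 14.5% of recovered falls against 12% of all tested genes with one, and the heat shock element core GAANNTTC in 3.57% of faded rises against 5.08%. The HNF4A site CAAAGTCCA was present in 1 of 152 recovered falls (0.658%), Slc3a1, against 37 of 10415 tested genes (0.355%). The cell cycle homology region TTTGAA was present in 20.2% of grown rises, 14.5% of recovered falls and 13.4% of faded rises against 10.8%. The steroid receptor motif TGTTCT was present in 5 of 21 deepened falls (23.8%), 18.4% of grown rises, 14.5% of recovered falls and 3.57% of faded rises against 11.1%.

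Among secreted signals, Il34, a ligand of the receptor encoded by Csf1r, measured 16, 21.1 and 16.8 FPKM in Ktx-7d against 3.44, 5.79 and 8.22 FPKM in sham-7d, and 44.8, 82.7 and 61.1 FPKM in Ktx-1d against 8.47, 5.6 and 7.14 FPKM in sham-1d. It was higher at day 1, when Csf1r was below sham, and its difference was -1.43 ± 0.37 (SE, limma adjusted p = 0.0353). Il33, an alarmin, had a difference of 1.58 ± 0.40 (SE, limma adjusted p = 0.0307), and with median-of-ratios scaling the adjusted p was 0.0524 by limma, above the threshold. Cxcl12, a chemokine, measured 27.4, 27.6 and 24.3 FPKM in Ktx-7d and 5.08, 5.13 and 2.87 FPKM in Ktx-1d, against 12.2 to 24.1 FPKM in sham-7d and 16.4 to 17.7 FPKM in sham-1d. Its fall at day 1 was no longer called at day 7, a difference of 2.30 ± 0.36 (SE, limma adjusted p = 0.000823). Mlkl, the effector of necroptosis, measured 1.55, 2.28 and 1.18 FPKM in Ktx-7d and 7.46, 8.82 and 13.7 FPKM in Ktx-1d, a difference of -1.93 ± 0.46 (SE, limma adjusted p = 0.021).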
